A study of Mus musculus with 39 samples.

Results

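The DP-only H3K27me3 regions were stretches of the mouse genome where the repressive histone mark H3K27me3 was found in the DP population and in neither of the populations sorted beside it. They were chosen by a rule on the peak lists. All peaks of the 9 H3K27me3 libraries were merged into 10684 regions, and a region was kept when it had a peak in 3 of 3 DP libraries and in 0 of 6 Oct4+ and Pdgfra+ libraries. This left 210 regions, or 1.97% of the merged regions, spanning 3.15 Mb of the mm10 (GRCm38) genome in all.

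The populations came from naïve extra-embryonic endoderm (nEnd), a culture resembling the primitive endoderm of the blastocyst. nEnd was made from mouse embryonic stem cells carrying an OCT4-mCherry reporter, by differentiation in RACL medium (RPMI with Activin A, CHIR99021 and LIF) and expansion of PDGFRA-positive cells on mouse embryonic fibroblast feeders. Flow sorting on the reporter and on an APC-coupled PDGFRA antibody gave Oct4+ cells, Pdgfra+ cells and DP cells, positive for both, with no further treatment in any group. CUT&Tag, in which an antibody tethers a transposase to a histone mark, was run for H3K4me1, H3K27ac, H3K9me3 and H3K27me3 in 3 replicates of each population, giving 36 libraries. The labels only number the replicates, and the study describes its replicates as biological.

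H3K27me3 is placed by Polycomb repressive complex 2 and lies over silent developmental genes, where it is classically centred on CpG-rich promoters. It can also form broad domains away from promoters. H3K27ac marks active promoters and enhancers, and cannot share a lysine with H3K27me3. H3K4me1 marks enhancers, active or primed, and H3K9me3 marks heterochromatin, repeats and imprinted alleles.

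The labels were read against H3K27ac peaks at the transcription starts of marker genes. At Pou5f1 (encoding OCT4) H3K27ac was present in 3 of 3 Oct4+, 1 of 3 DP and 1 of 3 Pdgfra+ libraries, and at Nanog in 3, 0 and 0. At Pdgfra it was present in 0, 2 and 3 libraries and at Sox7, an endoderm transcription factor, in 1, 3 and 3. Gata6 had it in 2, 3 and 3 libraries, Gata4 in 1, 2 and 3 and Sox17 in 0, 2 and 0. Sox2 had it in 3, 0 and 0, Esrrb in 2, 0 and 0 and Zfp42 in 2, 1 and 0. In these peak lists every endoderm marker was thus called in at least 2 DP libraries. Gata6, Gata4 and Sox7 were also called in Oct4+ libraries, and Sox17 in no Pdgfra+ library. The pluripotency markers Pou5f1 and Zfp42 were each called in 1 DP library. Of the 5 feeder fibroblast genes, Col1a1, Col1a2, Thy1 and Prrx1 had no H3K27ac peak in any library and Twist1 had one in 1 Oct4+ library. The 9 H3K27me3 lists differed in length. They held 3798, 8672 and 6418 peaks in DP, 1629, 2948 and 5785 in Oct4+ and 1143, 2841 and 6151 in Pdgfra+ (replicates 1 to 3). Read depths were not used here, and a peak absent from a short list may be a mark below that list's limit.

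The regions fell into a minority with CpG-rich promoters and a majority without. A few of them are shown to make that contrast visible, each as the 200 bp around the position of highest DP signal (the median of the 3 DP libraries), read from the plus strand of GRCm38, with each CpG in capitals.
Kit, chr5:75575069-75575268: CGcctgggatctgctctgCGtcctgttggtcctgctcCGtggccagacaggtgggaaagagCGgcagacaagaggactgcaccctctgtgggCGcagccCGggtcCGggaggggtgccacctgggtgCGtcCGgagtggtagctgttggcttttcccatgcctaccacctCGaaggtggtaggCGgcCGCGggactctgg
Epas1, chr17:86754842-86755041: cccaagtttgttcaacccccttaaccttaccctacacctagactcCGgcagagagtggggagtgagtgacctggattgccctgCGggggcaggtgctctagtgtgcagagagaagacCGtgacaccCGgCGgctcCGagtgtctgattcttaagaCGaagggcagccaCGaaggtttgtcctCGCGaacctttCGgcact
Prdm14, chr1:13126285-13126484: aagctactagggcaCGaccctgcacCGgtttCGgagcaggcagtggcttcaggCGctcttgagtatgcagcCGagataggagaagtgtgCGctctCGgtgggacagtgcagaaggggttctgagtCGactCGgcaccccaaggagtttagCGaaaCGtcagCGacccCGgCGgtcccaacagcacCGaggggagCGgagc
Igsf21 intron, chr4:140185637-140185836: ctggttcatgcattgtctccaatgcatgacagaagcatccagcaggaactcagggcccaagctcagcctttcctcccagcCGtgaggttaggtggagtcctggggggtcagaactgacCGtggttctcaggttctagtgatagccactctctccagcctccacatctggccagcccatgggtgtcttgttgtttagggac
Rasgrf1 intron, chr9:89975027-89975226: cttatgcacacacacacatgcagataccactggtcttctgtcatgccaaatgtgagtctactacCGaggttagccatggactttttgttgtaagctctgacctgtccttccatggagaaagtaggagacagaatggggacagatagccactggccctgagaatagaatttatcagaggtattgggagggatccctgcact
Fchsd2, chr7:101088538-101088737: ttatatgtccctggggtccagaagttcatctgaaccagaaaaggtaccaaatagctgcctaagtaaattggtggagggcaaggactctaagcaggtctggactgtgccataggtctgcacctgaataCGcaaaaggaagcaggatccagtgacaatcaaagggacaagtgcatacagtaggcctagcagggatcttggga
The Kit window held 13 CpGs and lay 213 bp from a Kit start, in an intron. The Epas1 window held 11 CpGs, 1241 bp from the Epas1 start in an intron, and the Prdm14 window held 16 CpGs, 779 bp from the Prdm14 start in an intron. The windows inside introns of Igsf21 and Rasgrf1, 61048 and 65217 bp from the nearest protein-coding start, held 2 and 1. The Fchsd2 region contains the start of Fchsd2, but its DP signal peaked in intergenic sequence 20096 bp away, where the window held 1 CpG.

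Across the members, 62 of 210 regions (29.5%) contained a protein-coding transcription start, against 2363 of the 3046 regions (77.6%) that had a peak in all 3 DP libraries and in at least 1 other library, called shared regions below. Among all merged regions the share was 43.2%. A CpG-rich window, meaning any 500 bp with at least 55% GC and an observed to expected CpG ratio of at least 0.65, was present in 52 DP-only regions (24.8%), in 76.1% of shared regions and in 39.1% of all merged regions. Of the 148 DP-only regions without a start, 8 (5.41%) held such a window, against 36.3% of the 683 shared regions without one. These are descriptions of the peak sets with no test, since regions are not replicates.

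The share of starts was lower in DP-only than in shared regions in every bin of width and of DP signal compared. The DP-only regions had a median width of 13700 bp (quartiles 10800 and 17300), close to the 15400 bp of shared regions. Under 10 kb wide, 43.6% of 39 DP-only and 83.4% of 632 shared regions contained a start. Between 10 and 20 kb, 27.7% of 137 DP-only and 75% of 1361 shared regions contained a start, and above 20 kb the shares were 20.6% of 34 and 77.4% of 1053. When all regions with a peak in 3 of 3 DP libraries were divided into 4 equal groups by mean percentile of DP signal, starts were found in 30.0, 26.3, 26.1 and 50% of DP-only regions (n = 120, 57, 23 and 10, weakest group first). The shared regions of the same groups contained starts in 68.7, 74.1, 77.6 and 88.4%.

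The share climbed with every further library in which a region was called. Among regions with a peak in all 3 DP libraries, a start was contained by 29.5% with 0 other libraries, 47.6% with 1, 66.7% with 2, 77.8% with 3, 84.3% with 4, 89.8% with 5 and 94.5% with all 6. The CpG-rich window followed the same order, from 24.8% to 97.0%. The median percentile of DP signal also moved with the number of other libraries, from 45.6 to 91.4, and its part in the order was described only by the 4 groups given above.

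**Figure D1:**
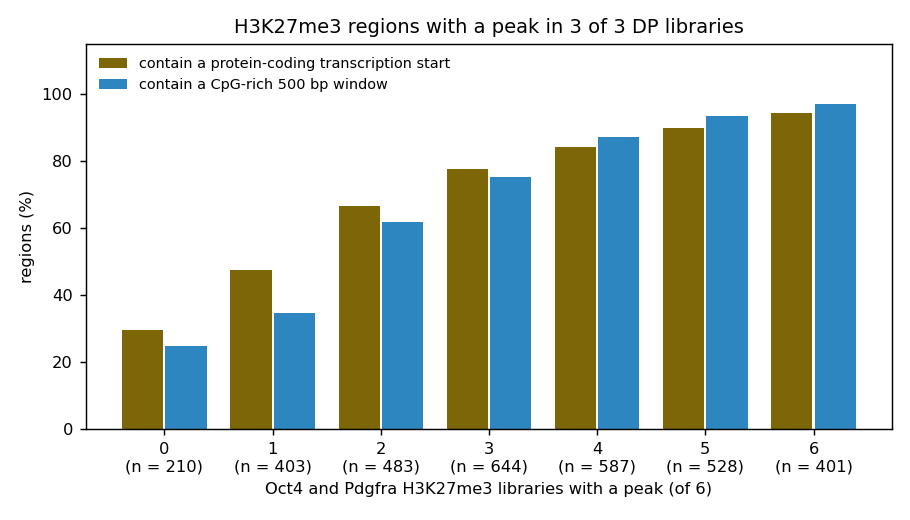
Regions with an H3K27me3 peak in 3 of 3 DP libraries, divided by how many of the 6 Oct4+ and Pdgfra+ libraries also had a peak (x axis, with the number of regions). Bars give the percent of regions containing a protein-coding transcription start (brown) or a CpG-rich 500 bp window (blue), and both are lowest in the DP-only regions at the left (29.5 and 24.8%) and highest where all 6 had a peak (94.5 and 97.0%).

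The sequence of the regions differed in the same direction. The median GC content was 46.4% in DP-only and 49.6% in shared regions, and the median CpG ratio 0.218 and 0.286. Soft-masked repeats made up a median of 21.8% of a DP-only and 18.4% of a shared region. The midpoint lay in intergenic sequence for 123 DP-only regions (58.6%), in an intron for 73 (34.8%) and in an exon for 14 (6.67%). For shared regions these shares were 39.2, 47.2 and 13.6%. The median distance from the midpoint to the nearest protein-coding start was 18000 bp in DP-only and 3010 bp in shared regions.

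Short motifs in the central 2 kb were counted on both strands. A GATA motif (AGATAAG or TGATAAG), read by the GATA factors of endoderm, was found in 43.3% of DP-only, 26.8% of shared and 30.7% of all merged regions. An AP-1 motif (TGACTCA or TGAGTCA) was found in 37.6, 25.6 and 28.6%. A GC-rich TFAP2 motif (GCCNNNGGC) was found in 41.4, 57.2 and 50.9%. The AT-richer motifs were thus more frequent, and the GC-rich motif less frequent, in a set of lower GC content. A match is a run of letters and not a binding site, and the part of base composition in these shares was not tested.

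On the chromosomes the regions were scattered. Chromosome 6 held 24 of them (11.4%, against 8.22% of all merged regions) and chromosome 1 held 19 (9.05% against 6.22%), while chromosome X held 2. Only 28 regions lay within 100 kb of another, in 14 pairs and no larger group. The nearest Oct4+ or Pdgfra+ H3K27me3 peak was a median of 43.7 kb away (quartiles 12.2 and 133). In 23 regions it lay within 5 kb, and in 66 it lay over 100 kb away.

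H3K27me3 signal itself chose the regions and is given as a description. In each DP library a region's strongest peak, by total signal (summed coverage), was ranked within that library's list. The percentile of a region is that of this peak, while its total signal is summed over all its peaks. There was 1 peak in each DP library in 151 regions. The regions stood at a median percentile of 34.2 in DP replicate 1, 67.2 in replicate 2 and 43.4 in replicate 3. Thus 60, 163 and 85 of the 210 stood above the median of the respective list, and 35 reached it in all 3. Of these lists that of DP replicate 2 is the longest and that of DP replicate 1 the shortest. The 3 DP peaks shared bases in 199 regions, a median of 4370 bp over all members, and in 11 regions no base lay under all 3.

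**Figure D2:**
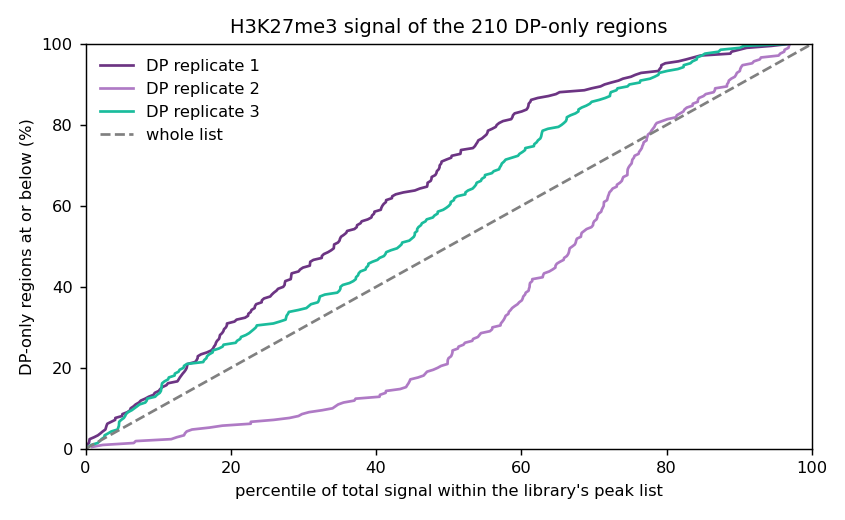
Cumulative share of the 210 DP-only regions (y axis, percent) at or below each percentile of their strongest peak (x axis). Peaks were ranked by total H3K27me3 signal within the list of each DP library, and the dashed diagonal is the whole list. The curve of DP replicate 2 lies to the right (median percentile 67.2), and those of replicates 1 and 3 to the left (34.2 and 43.4).

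At the edge of the rule, 403 regions had a peak in 3 of 3 DP libraries and 1 other library, which was Pdgfra+ replicate 3 for 299 of them and Oct4+ replicate 3 for 102. These are the longest lists of their populations. Their median width was 14690 bp. Another 574 regions had a peak in 2 of 3 DP libraries and in no other. The missing library was DP replicate 1 for 424 of them, and their median width was 6884 bp. A start was contained by 23.5% of them and a CpG-rich window by 17.6%, both below the 29.5 and 24.8% of the DP-only regions. In the 403 regions these shares were 47.6 and 34.7%.

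The strongest regions were a mixture of gene starts and distal sequence. The widest and strongest (48835 bp, chr4:140168072-140216906) lay inside the immunoglobulin-superfamily gene Igsf21 and contained no start. Its total signal, summed over its peaks, was 358399, 209444 and 150411 in DP replicates 1 to 3. Its strongest peak stood at percentiles 96.7, 96.8 and 96.5 of the 3 lists. The region also had H3K9me3 peaks in 3 of 3 DP and 3 of 3 Pdgfra+ libraries and in 0 of 3 Oct4+ libraries, and no H3K27ac peak in any. Oct4+ H3K9me3 peaks lay just outside it. They ended at -25.27, -25.07 and -25.21 kb from the region centre, beside the edge at -24.42 kb. H3K4me1 was present in the region in 2 of 3 Oct4+ libraries and in 0 of the 6 others.

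Second was Epas1 (ENSMUSG00000024140.10), which encodes the hypoxia-inducible factor HIF-2α. The region (chr17:86724803-86757358) covered the start and sequence upstream of it, with total signals of 294477, 199182 and 96054. It also carried active marks. H3K27ac was present in 2 libraries of each population, and H3K4me1 in 3 of 3 Oct4+, 3 of 3 DP and 2 of 3 Pdgfra+ libraries. DP H3K27ac peaks overlaid 7214 of the 16634 bp that were under H3K27me3 in all 3 DP libraries.

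Kit (ENSMUSG00000005672.12) encodes the receptor tyrosine kinase for stem cell factor. Its region (chr5:75568200-75588131) had total signals of 176036, 135149 and 57345, at percentiles 82.7, 93 and 84.2. Within the region H3K4me1 was called in 2 of 3 DP, 1 of 3 Oct4+ and 0 of 3 Pdgfra+ libraries. H3K27ac was called there in 2 of 3 Oct4+ libraries and in no DP or Pdgfra+ library. Just past the region edge, at 9.97 kb from the centre, H3K27ac peaks of DP replicate 3 and Pdgfra+ replicate 2 began at 10.06 and 10.2 kb. The DP H3K4me1 peaks did not overlap, lying at -4.1 to -1.18 kb and at 0.95 to 2.32 kb from the region centre. The nearest Oct4+ H3K27me3 peak was 386934 bp away and the nearest Pdgfra+ peak 386239 bp.

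Prdm14 (ENSMUSG00000042414.7), a transcriptional regulator of pluripotency and germ cells, was the single gene of the lineage and signalling lists whose start lay in a DP-only region. Its region was short (6547 bp, chr1:13123315-13129861) and of middling signal, with totals of 66270, 38830 and 24378 at percentiles 24.6, 57.1 and 49.3. In Oct4+ cells the same stretch carried H3K4me1 in 3 of 3 and H3K27ac in 2 of 3 libraries. In DP and Pdgfra+ cells neither mark was called there in any library. The H3K27me3 of this start was called in 3 of 3 DP and 0 of 3 Pdgfra+ libraries, while both populations lacked the marks seen in Oct4+.

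**Figure D3:**
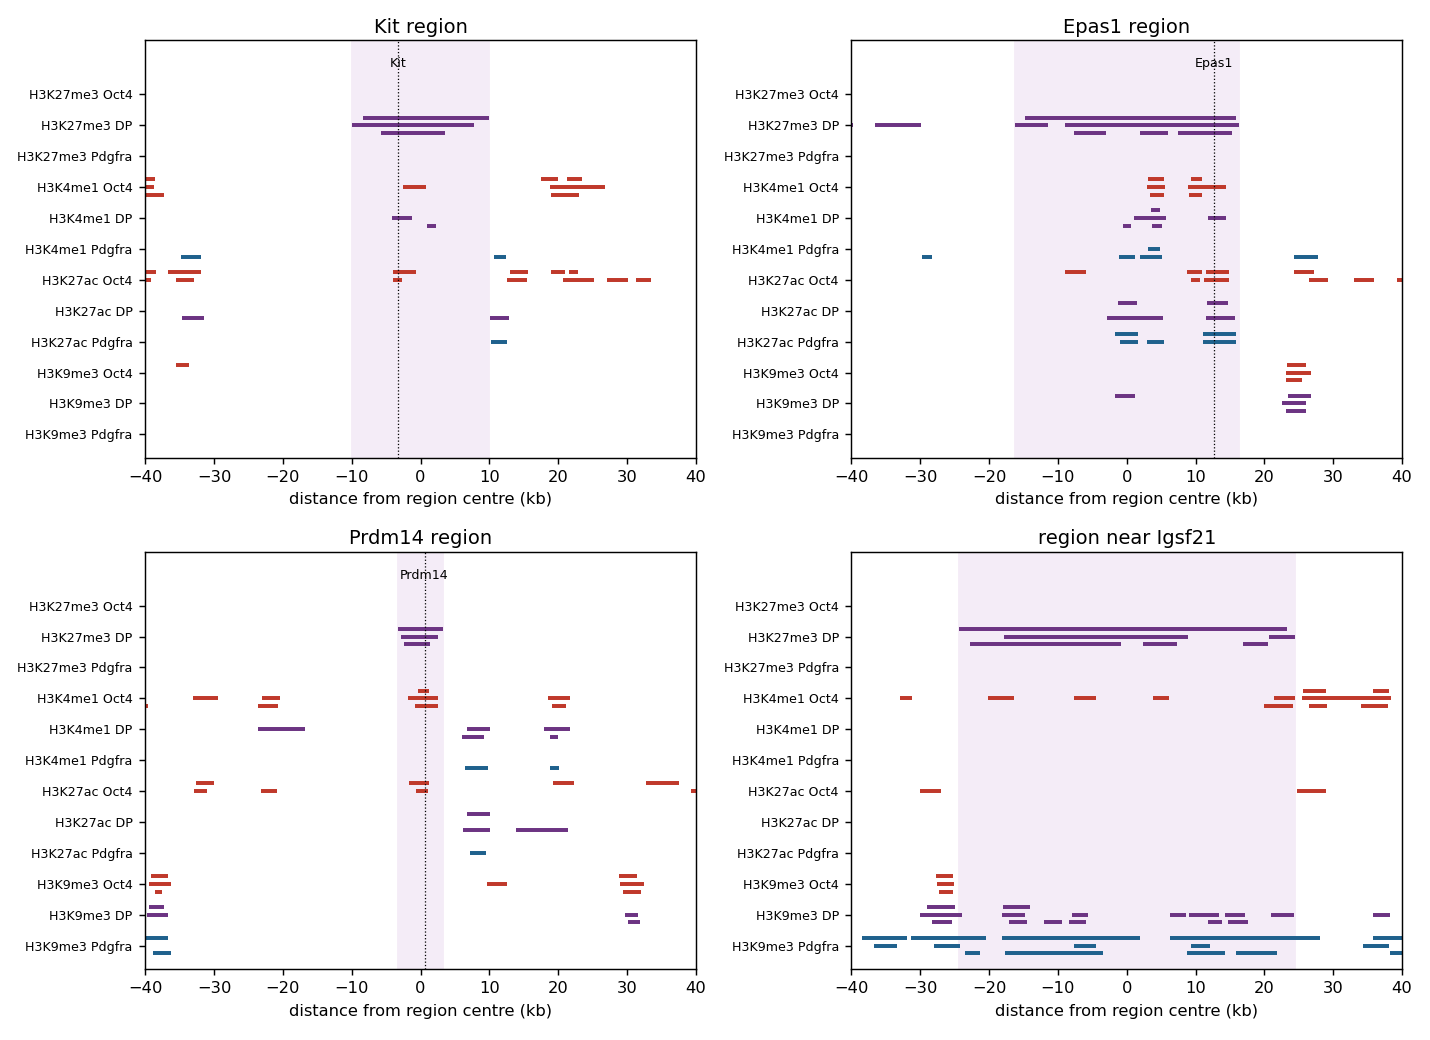
Peaks around 4 DP-only regions, Kit, Epas1, Prdm14 and the one inside Igsf21, by distance from the region centre (x axis, kb). Each bar is a peak, each row of labels holds the 3 replicates of a mark and population (red Oct4, purple DP, blue Pdgfra), the shading is the DP-only region and dotted lines are protein-coding starts. H3K27me3 bars within the shading are all purple, Oct4 H3K4me1 and H3K27ac sit over the Prdm14 start, and DP and Pdgfra H3K9me3 spans the region in Igsf21.

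The remaining strong regions varied in their other marks. Fchsd2, a membrane-remodelling protein of endocytosis, had H3K4me1 in 2 of 3 DP libraries and in no other, with H3K27ac in 2 of 3 Oct4+ libraries. A region 86319 bp from Irs2, the insulin receptor substrate, and one 252181 bp from Prok2, which encodes a secreted prokineticin, each had H3K27ac in 1 Oct4+ library and in no DP or Pdgfra+ library. The intronic region in Rasgrf1, a Ras exchange factor imprinted in mouse, had H3K4me1 in 2 of 3 DP and 1 of 3 Pdgfra+ libraries. A region near Arid3a, a DNA-binding factor, had H3K27ac in 2 of 3 Oct4+ libraries only. Pde4dip, a Golgi and centrosome scaffold, had neither H3K4me1 nor H3K27ac in any library and H3K9me3 in 3 of 3 Oct4+ libraries. Myo18a, an unconventional myosin, had H3K27ac in 2, 3 and 3 libraries of Oct4+, DP and Pdgfra+. Its DP H3K27ac covered 0 of the 16019 bp under all 3 DP H3K27me3 peaks, so both marks lay in the region but not on those bases.

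At the other end were regions whose membership rests on weak peaks. The lowest 3 by mean percentile were a region near Lhfpl2 (8.59), Rasa2 (11) and a region near Fam124b (12.2). Rasa2 encodes a Ras GTPase-activating protein. Its start region carried H3K27ac in 9 of 9 libraries, and the 3 DP H3K27me3 peaks there shared 0 bp.

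Few of the developmental genes that are classical targets of H3K27me3 had a start in a DP-only region. Lists of 25 genes each were read for pluripotency, primitive endoderm, trophectoderm, mesoderm and neural ectoderm. In a DP-only region lay the start of 1 pluripotency gene and of 0 genes of the other lists, whereas 4, 2, 13, 14 and 24 genes had a start in a shared region. Of all 21924 protein-coding genes, 70 (0.319%) had a start in a DP-only region and 2764 (12.6%) in a shared one. None of the 39 Hox, 19 Sox, 44 forkhead or 9 Pax genes had a start in a DP-only region, and 38, 12, 26 and 9 of them had one in a shared region. No start of a Wnt, FGF or TGF-β/BMP list gene (31, 19 and 24 genes) lay in a DP-only region. Within 20 kb of a member, Otx2, a head and neural regulator on the pluripotency list, and Pax8, a thyroid and kidney factor, were added. Of all 21924 protein-coding genes, 200 had a start at that distance. The starts that were in members included the solute carriers Slc12a2, Slc12a7 and Slc13a2, the collagen Col18a1 and the potassium channel subunit Kcne1, named after their values were seen. With so few genes called, a count of 0 in a list of this size is close to the share over all genes.

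The other marks offered measures that the rule did not use. For each library the percent of DP-only regions overlapped by a peak was set beside that of the shared regions, and the difference, called excess here, was compared among populations. Shared regions were themselves defined by H3K27me3 peaks in Oct4+ or Pdgfra+ libraries, and they more often contained a start. The excess is therefore not independent of the rule. The reported p comes from an exact permutation of the one-way F statistic (every assignment of the 9 libraries to the populations, adjusted by Benjamini-Hochberg over the 3 marks). No single pair of populations can go below an exact p of 0.10 with 3 libraries against 3. In bulk sorted cells, a mark in fewer cells and less of it in each cell cannot be told apart.

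H3K4me1 lay at 5.71, 28.6 and 12.9% of DP-only regions in Oct4+ replicates 1 to 3, at 7.14, 28.6 and 20% in DP and at 3.81, 1.90 and 22.4% in Pdgfra+. The populations overlapped widely, and the share moved with the number of H3K4me1 peaks in the library, from 1074 (Pdgfra+ replicate 2) to 16057 (Oct4+ replicate 2). Against the shared regions, the excess was -5.42, -7.21 and -3.03 percentage points in Oct4+, 1.10, 5.92 and 3.03 in DP and 1.45, 0.165 and 9.84 in Pdgfra+. All 3 Oct4+ libraries were below their shared regions and all 6 others above, with means of -5.22 ± 2.10, 3.35 ± 2.42 and 3.82 ± 5.26 points (SD, n = 3 each). The exact permutation p was 0.0429, and after adjustment 0.129, which does not pass the threshold of 0.05. DP exceeded Oct4+ by 8.57 points (two-sided exact p = 0.10, adjusted p = 0.45 over 9 pairs) and differed from Pdgfra+ by -0.468 points (exact p = 0.90, adjusted p = 1). Without Pdgfra+ replicate 3, the gap between Pdgfra+ and Oct4+ was 6.03 points in place of 9.04 and the adjusted exact p was 0.0429. With equal numbers of peaks per library the Oct4+ mean was -0.847, the DP mean -0.804 and the Pdgfra+ mean 0.931, so the separation of DP from Oct4+ was not seen there. The negative sign in Oct4+ also depended on the comparison set and the overlap. Against all other merged regions the means were 3.33, 8.53 and 5.35 points in Oct4+, DP and Pdgfra+, in the central 2 kb they were 0.451, 0.752 and 2.52, and among regions with a start 3.87, 7.14 and 6.62. The gap was then 2.01, 2.07 and 2.75 points (adjusted exact p = 0.55, 0.789 and 0.893). Among regions without a start the means were -5.99, 4.08 and 3.23 points, a gap between DP and Oct4+ or Pdgfra+ and Oct4+ in the same direction as the main comparison. The Pdgfra+ minus Oct4+ gap was 9.21 points there (adjusted exact p = 0.0857).

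**Figure D4:**
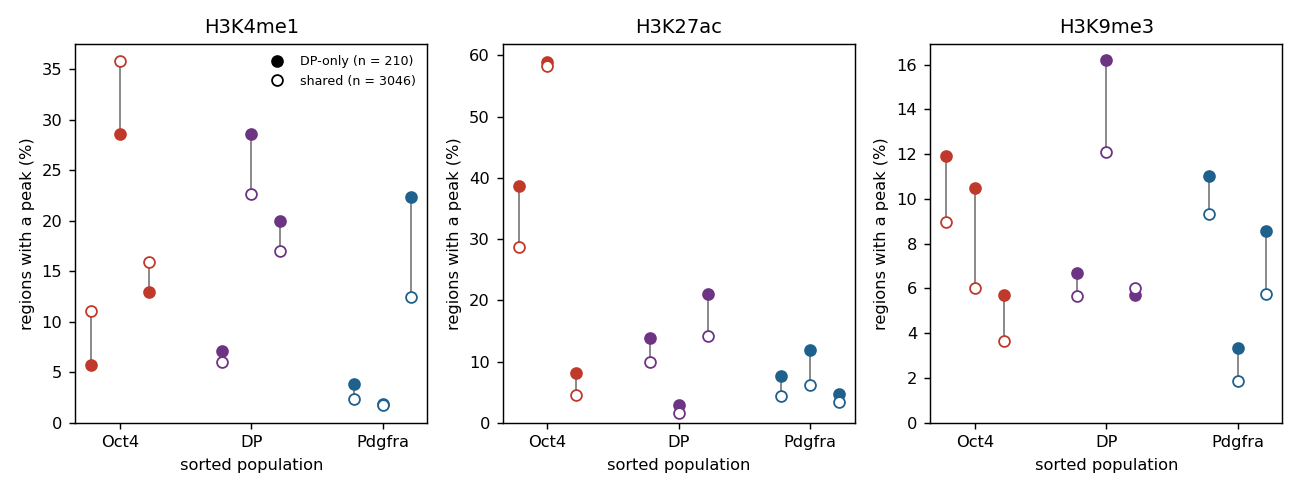
Percent of regions with a peak (y axis, from 0) in each of 9 libraries for 3 marks, by sorted population, with replicates 1 to 3 from left to right. Filled points are the 210 DP-only regions and open points the 3046 shared regions of the same library. For H3K4me1 the filled points lie below the open ones in all 3 Oct4 libraries and above them in DP and Pdgfra, and the libraries of 1 population spread widely.

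At single regions a mark was called when present in at least 2 of 3 libraries of a population. The peaks of different libraries could lie at different places within a region. DP-only regions were wider than all merged regions (median 13700 against 8290 bp), so a peak of any mark had more room to overlap them. The part of width in these calls and in those of H3K27ac and H3K9me3 below was not tested. H3K4me1 was called at 30 DP-only regions in Oct4+ (14.3%, against 10% of all merged regions), at 38 in DP (18.1% against 9.23%) and at 9 in Pdgfra+ (4.29% against 2.01%). In the shared regions the percentages were 17.2, 13.6 and 2.95. Of the 38 DP regions, 15 contained a start, and 23 had DP H3K4me1 on bases under all 3 DP H3K27me3 peaks. DP H3K4me1 was called with no DP H3K27ac peak at 18 DP-only regions (8.57%), beside 4.43% of all merged and 7.72% of shared regions. The DP-only and shared regions have DP H3K27me3 by definition, but not all merged regions do. In 7 of the 38 (3.33% of the DP-only regions, against 1.31% of all merged and 1.71% of shared regions), H3K4me1 was absent from all Oct4+ and Pdgfra+ libraries. These were Fchsd2, the region with the starts of Atp6v0a4 and Tmem213, and distal regions near Cdkl1, Rcan1, Foxo1, Suclg2 and Lhfpl2, some of them named after their values were seen.

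Ranked by DP H3K4me1 signal, the leading regions were one near Plxna1 (a semaphorin receptor), Myo18a, one near Slc4a9 (an anion exchanger) and Tmem184a, with mean H3K4me1 percentiles of 85.1, 80.4, 78.8 and 75. Near Plxna1, H3K4me1 was present in 3 of 3 DP and 3 of 3 Pdgfra+ libraries and 0 of 3 Oct4+, while H3K27ac was present in 3 of 3 Oct4+, 1 of 3 DP and 0 of 3 Pdgfra+. The pattern near Actn1, which encodes an actin cross-linker, was H3K4me1 in 1, 3 and 3 libraries and H3K27ac in 2, 2 and 1 (Oct4+, DP, Pdgfra+). A region near Coq2, a coenzyme Q synthesis enzyme, had H3K27ac in 1, 3 and 3. Rara, the retinoic acid receptor α, had H3K27ac in 9 of 9 libraries and H3K4me1 in 3, 2 and 1. The rest of the 10 were a region near Ypel2, Mbp (myelin basic protein) and Abcc1 (a drug efflux transporter), each with H3K4me1 in 2 of 3 DP libraries.

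H3K27ac lay at 38.6, 59.0 and 8.10% of DP-only regions in Oct4+ libraries, at 13.8, 2.86 and 21% in DP and at 7.62, 11.9 and 4.76% in Pdgfra+. The Oct4+ lists of replicates 1 and 2 were by far the longest (38619 and 65131 peaks, against 3079 to 12244 in the other 7 libraries). The excess over shared regions was positive in 9 of 9 libraries, at 4.72 ± 4.66, 4.04 ± 2.78 and 3.46 ± 2.14 points in Oct4+, DP and Pdgfra+ (SD, n = 3 each). The exact permutation p for a difference among populations was 0.914, adjusted 0.914. Oct4+ exceeded Pdgfra+ by 1.26 points, less than the SD within either. Against all other merged regions the means were 11.6, 5.23 and 3.75 points, a gap of 7.87 (adjusted exact p = 0.482), and the shares of the DP-only regions alone differed by 27.1 points (adjusted exact p = 0.418).

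By the call in 2 of 3 libraries, H3K27ac was present at 66 DP-only regions in Oct4+ (31.4%, against 18.0% of all merged and 24.9% of shared regions). It was called at 27 in DP (12.9%, against 7.24 and 7.98%) and at 17 in Pdgfra+ (8.10%, against 4.02 and 4.07%). In 13 regions (6.19%, against 2.22% of all merged and 2.46% of shared regions) it was called in all 3 populations. In 35 regions (16.7%, against 12.0% of all merged and 16.4% of shared regions) it was called in Oct4+ and present in no DP library, and in all of those it was absent from Pdgfra+ too. Given the longer Oct4+ lists, and a share equal to that of shared regions within a fraction of a point, this count of 35 does not set the DP-only regions apart. Of the 27 regions with the DP call, 18 contained a start and 20 had H3K27ac on bases under all 3 DP H3K27me3 peaks. Rara, Irf2bp2 (an IRF2-binding corepressor) and Rasa2 had H3K27ac in 9 of 9 libraries, Irf2bp2 being named after its values were seen.

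**Figure D5:**
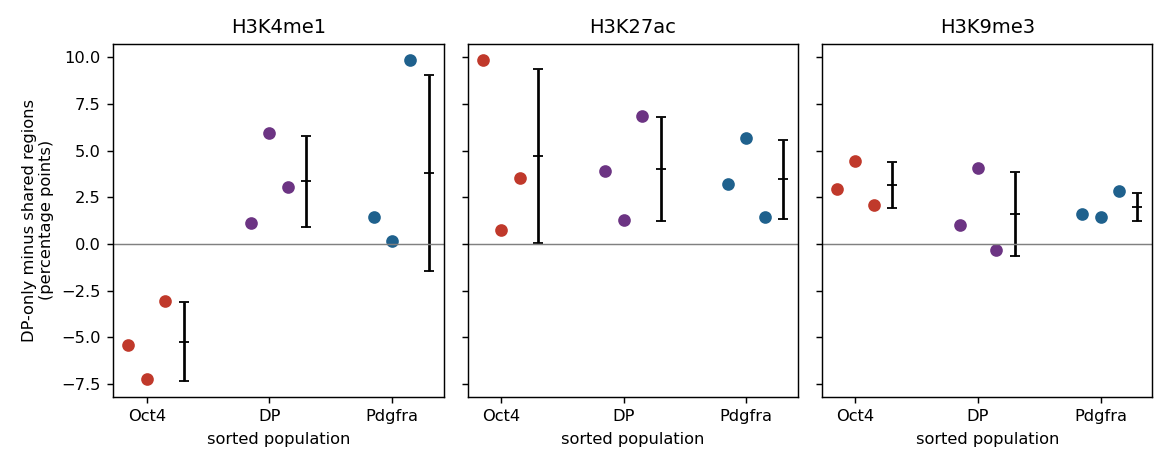
Excess of each mark at DP-only over shared regions (y axis, percentage points) in each library, by sorted population, with the mean and SD (n = 3) at the right of each group as a black bar. H3K4me1 is below 0 in all 3 Oct4 libraries (-5.22 ± 2.10) and above 0 in the other 6, while H3K27ac is above 0 in all 9.

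H3K9me3 lay at 11.9, 10.5 and 5.71% of DP-only regions in Oct4+, 6.67, 16.2 and 5.71% in DP and 11, 3.33 and 8.57% in Pdgfra+. The excess was 3.16 ± 1.21, 1.60 ± 2.24 and 1.97 ± 0.744 points (SD, n = 3 each), and the populations did not pass the test (exact permutation p = 0.461, adjusted 0.691). The order was not stable. With members taken from equal numbers of H3K27me3 peaks the means were -0.854, 10.6 and 4.52 points (adjusted exact p = 0.0214), and among regions with a start they were 8.24, 3.22 and 3.85 (adjusted exact p = 0.0214), with opposite signs of Oct4+ minus DP. Among regions without a start the means were -0.376, -1.89 and 0.101 points (adjusted exact p = 0.209). By the call in 2 of 3 libraries H3K9me3 was present at 17 regions in Oct4+ (8.10%, against 3.95% of all merged regions), at 13 in DP (6.19% against 4.70%) and at 15 in Pdgfra+ (7.14% against 3.87%). In the shared regions the percentages were 5.55, 6.11 and 4.83, so in DP the share was close to that of shared regions. A region over the starts of Peg10 and Sgce, neighbouring paternally expressed imprinted genes (chr6:4744322-4750115), had H3K9me3 in 3 of 3 Oct4+, 2 of 3 DP and 0 of 3 Pdgfra+ libraries, and H3K4me1 in 1, 2 and 1. It was named after its values were seen.

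No peak of H3K4me1, H3K27ac or H3K9me3 was found in any of the 27 libraries at 38 of the 210 regions (18.1%, against 33.9% of all merged and 21.5% of shared regions). In none of the DP libraries was one found at 102 regions (48.6%, against 68.4 and 57.8%). No H3K27ac peak was found in any library at 65 regions (31.0%, against 46.7 and 35.3%), no H3K4me1 peak at 107 (51.0%, against 67.5 and 51.8%) and no H3K9me3 peak at 144 (68.6%, against 82.9 and 78.9%). All merged regions are narrower, with a median of 8290 bp.

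Membership depended on the length of the lists. When each H3K27me3 library was limited to its 1143 strongest peaks, the length of the shortest list, 67 regions met the rule, and 7 of the 210 overlapped one of them. With the stronger 50% of every list 113 met it, and 35 of the 210 overlapped one. Requiring 5 kb free of any Oct4+ or Pdgfra+ peak kept 187. Leaving out Pdgfra+ replicate 3 gave 521 regions, leaving out Oct4+ replicate 3 gave 317, and leaving out DP replicate 1 or 3 gave 675 or 357. The 210 regions are thus DP-only at the deposited thresholds, and most of them are not among the strongest peaks of the DP lists.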

How the data were processed

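CUT&Tag peak lists of 36 libraries (4 marks, 3 populations, 3 replicates) were used as deposited. The authors called peaks with SEACR against IgG on mm10 alignments, and per the labels the tools were Bowtie2, SAMtools 1.12, deepTools and bedtools 2.26.0. The deposited values are peak coordinates with total and maximum signal (summed and highest coverage), not scaled for depth. The IgG libraries were not analysed here. No peak passed a chromosome end of GRCm38.

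Overlaps of at least 1 bp were computed in Python 3.11.15 with pandas 2.3.3, and checked against bedtools 2.31.1. The selection and tests were tested on simulated data. Genes came from GENCODE M21, and sequence from GRCm38.p6 (RefSeq), read with pysam 0.24.0. Groups were compared by exact permutation over libraries. Named regions were the 10 of highest mean percentile, those at listed genes, up to 10 each with H3K27ac or DP H3K4me1 calls, and the lowest 3. The members and lists were chosen with earlier results of these data known. Alternatives changed list length, overlap, comparison regions and libraries. Splitting the regions by whether they contain a start was chosen after seeing the data.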

Additional observations from a re-analysis of the deposited data

Results flagged for a closer look

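The excess of H3K4me1 at DP-only over shared regions pointed in opposite directions when any overlap with the whole region counted. It was negative in all 3 Oct4+ libraries and positive in all 3 DP and all 3 Pdgfra+ libraries. Oct4+ minus DP was -8.57 points and Oct4+ minus Pdgfra+ was -9.04 points (two-sided exact permutation p = 0.10 for each, the smallest that 3 libraries against 3 allow, adjusted p = 0.45). The opposite signs held for that comparison set and overlap with the full peak lists. With equal numbers of peaks per library the means were -0.847 in Oct4+, -0.804 in DP and 0.931 in Pdgfra+. In the main comparison the Oct4+ mean was -5.22 points. It was 3.33 against all other merged regions, 0.451 in the central 2 kb and 3.87 among regions with a start. Among regions without a start the Oct4+ mean was -5.99. The mean share of DP-only regions with H3K4me1 was 15.7% in Oct4+, 18.6% in DP and 9.37% in Pdgfra+. In shared regions, themselves defined by Oct4+ or Pdgfra+ H3K27me3 peaks, it was 20.9, 15.2 and 5.55%.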

How the results depend on the processing

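The number of DP-only regions was 210, and 67 with equal numbers of peaks and 113 with the stronger 50% of peaks. Leaving out 1 library gave 210 to 675. The H3K4me1 gap of 9.04 points (Pdgfra+ minus Oct4+) was -6.35 for members alone, without a comparison set. It was 2.01 against all other merged regions, 2.07 in the central 2 kb, 1.78 with equal numbers and 4.04 with the stronger 50%. Among regions with a start it was 2.75, and among regions without one 9.21. It was 14.5 with members from equal numbers of H3K27me3 peaks, and 6.03 to 10.9 when 1 library was left out. The threshold was passed without Pdgfra+ replicate 3 (adjusted exact p = 0.0429). The H3K27ac gap of 1.26 (Oct4+ minus Pdgfra+) was -1.36 with equal numbers, 7.87 against all other merged regions and 27.1 for members alone. It was 2.94 in the central 2 kb, 3.21 among regions with a start and 1.92 among regions without one. With 1 library left out it was -1.30 to 3.25, the lowest without Oct4+ replicate 1. The H3K9me3 gap of 1.56 (Oct4+ minus DP) was -0.0278 with the stronger 50%, -0.159 for members alone and -11.5 with members from equal numbers of H3K27me3 peaks (adjusted exact p = 0.0214, with 67 members). It was 5.02 among regions with a start (adjusted exact p = 0.0214) and 1.52 among regions without one (adjusted exact p = 0.209). The split by start was added after seeing the data. The causes were not tested. The replicate block left the gaps at 9.04, 1.26 and 1.56 with adjusted exact p of 0.25, 0.861 and 0.542, and changed no call. Same-numbered libraries of H3K4me1, H3K27ac and H3K9me3 correlated over 0.1 in 4 of 27 pairs. H3K27me3 libraries were not among the pairs, and a batch shared by same-numbered libraries was not tested.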
